A study of Arabidopsis thaliana with 3 samples.

Results

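The genes described are 9 genes of pattern-triggered immunity in Arabidopsis thaliana: the receptors and co-receptors FLS2, EFR, CERK1, LYK5, PEPR1 and SOBIR1, the cytoplasmic kinase BIK1, and the NADPH oxidases RBOHD and RBOHF. The rule that chose them uses their AGI locus identifiers and no measured value, although it was written with earlier results of these data known, and all 9 were found among the 27416 genes measured. RNA came from 1 group of 3 libraries, replicates 4, 5 and 6, of whole wild-type seedlings of the accession Col-0 at 3 weeks of age. The plants grew on MS medium plates at 23 ± 2 °C in long days, with a light phase of 16 h and a dark phase of 8 h. No elicitor, pathogen or mutant was part of this group, so the data give the levels of these genes in unchallenged wild-type plants, and how they order among themselves. The labels do not say whether the libraries came from separate plates or plants, so the SD is the spread between these libraries, which may be technical.

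Plants detect microbes at the cell surface through receptor kinases that bind conserved microbial molecules or peptides released by the plant's own damaged cells. Binding brings the receptor together with a co-receptor such as BAK1, and the complex phosphorylates the cytoplasmic kinase BIK1. BIK1 in turn phosphorylates RBOHD, a plasma membrane oxidase that makes the burst of reactive oxygen in the apoplast. FLS2 binds bacterial flagellin, EFR binds the bacterial elongation factor EF-Tu, and PEPR1 binds the plant's Pep peptides. CERK1 and LYK5 carry LysM domains and act together in the perception of fungal chitin, and SOBIR1 is the partner kinase of receptor-like proteins that have no kinase of their own.

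The kinases fall into more than one catalytic class, which can be read from the coding sequence. The coding sequence around the catalytic loop is shown for the 6 kinases in which the motif was found, with the 3 codons of the catalytic motif in capitals (RefSeq, TAIR10.1, 5′ to 3′ on the coding strand). The search asked, in frame, for a histidine or tyrosine codon, any codon, an aspartate or asparagine codon, a leucine, isoleucine or valine codon, a lysine or arginine codon, any 2 codons and an asparagine codon.
FLS2, chr5:18794775-18794807: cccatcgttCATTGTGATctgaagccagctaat
EFR, chr5:6925026-6925058: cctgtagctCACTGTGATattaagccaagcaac
PEPR1, chr1:27487357-27487389: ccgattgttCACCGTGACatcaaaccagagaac
CERK1, chr3:7616575-7616607, minus strand: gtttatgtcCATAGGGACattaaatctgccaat
SOBIR1, chr2:13556369-13556401: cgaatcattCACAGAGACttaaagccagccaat
BIK1, chr2:16532827-16532859: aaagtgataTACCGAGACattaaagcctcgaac
The middle codon was TGT in FLS2 and in EFR. It was CGT in PEPR1, AGG in CERK1, AGA in SOBIR1 and CGA in BIK1, and these codons encode arginine in the standard code. Kinases without that arginine are called non-RD kinases, a class common among receptors of innate immunity. No match was found in the coding sequence of LYK5, whose kinase domain is described in the literature as lacking activity. The 4 kinases with an arginine codon, CERK1, SOBIR1, BIK1 and PEPR1, were higher than FLS2 and EFR in every library. This grouping by codon was noticed after the levels were seen, and it is a description of 6 genes.

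All 9 genes reached 1 FPKM in each of the 3 libraries, which is called detected here. Among all nuclear protein-coding genes 63.0% met the same rule, so 9 of 9 is a description of a small set and not a property of it. FPKM (fragments per length of gene model and library size) is a level per length and can be compared between genes. The mean levels ran over a 16.4-fold range, from RBOHD at the top through CERK1, SOBIR1, BIK1, PEPR1, FLS2, RBOHF and LYK5 to EFR. In every library 6 of the 9 lay above the median nuclear gene, against 48.8% of all nuclear genes, and RBOHF, LYK5 and EFR lay below it. The median of the 9 genes was 8.53 FPKM, against 4.71 FPKM for the median nuclear gene, a difference of 0.74 in log2(FPKM + 1) that ran from 0.73 to 0.75 in single libraries. Against nuclear genes whose mean reached 1 FPKM the difference turned to -0.51, and then only 1 of the 9, RBOHD, lay above the median.

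**Figure D1:**
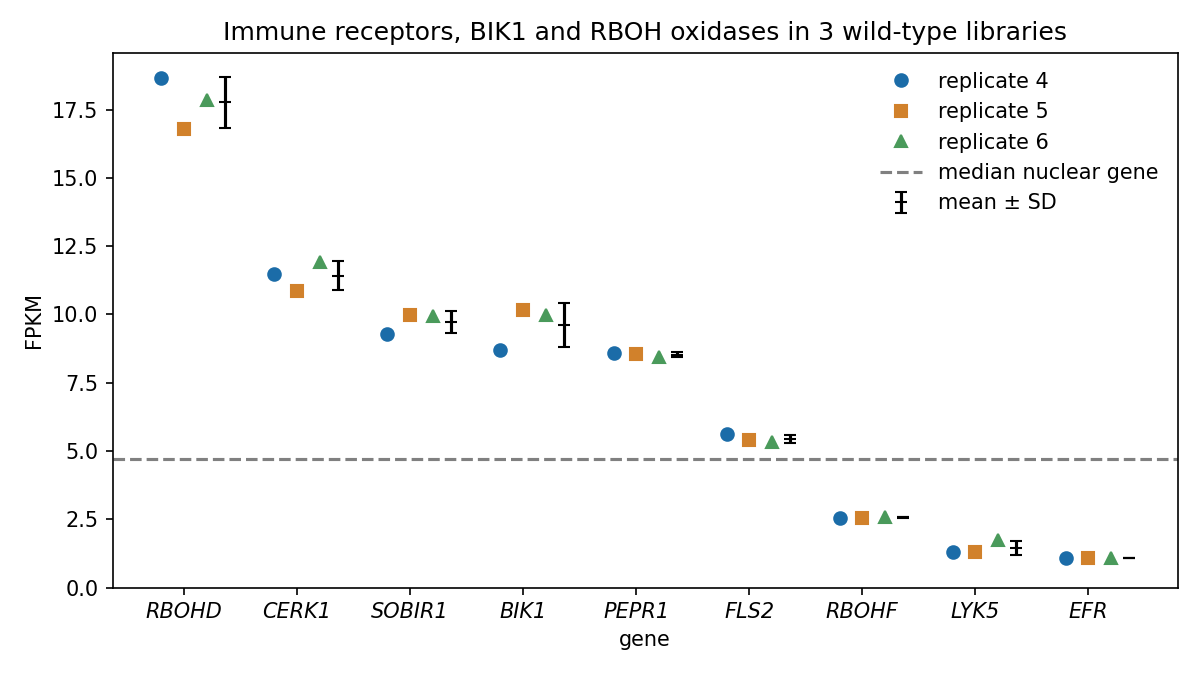
Level in FPKM (vertical axis, linear) of the 9 genes in replicates 4, 5 and 6, ordered by mean, with the mean ± SD beside the points and the median nuclear gene (4.71 FPKM) as a dashed line. RBOHD lies highest at 16.8 to 18.6 FPKM, the points of SOBIR1 and BIK1 interleave, and RBOHF, LYK5 and EFR lie below the line.

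The receptors of peptides and proteins differed widely among themselves. FLS2 (AT5G46330, chromosome 5, 18791575 to 18795908, plus strand, 2 exons, TAIR10.1 for this and all later positions) had 5.62, 5.41 and 5.31 FPKM in replicates 4, 5 and 6, a mean of 5.45 ± 0.155 FPKM (SD, n = 3). These values rest on 417, 401 and 394 reads. They lay just above the median nuclear gene, at percentile 52.1 of nuclear genes. The 3′ neighbour on the other strand, RWA1 (AT5G46340), shares 172 bases with FLS2 in the annotation and had 11.8 ± 0.511 FPKM. The sources used here do not give whether counting used strand, so reads in those bases cannot be told apart. The gene model behind the FLS2 values was 3727 bases long, against 4250 bases of annotated exon. Whether that model includes the shared bases is not known.

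EFR (AT5G20480, chromosome 5, 6921509 to 6925901, plus strand, 2 exons) was the lowest of the 9 genes. It had 1.07, 1.09 and 1.09 FPKM, a mean of 1.08 ± 0.0094 FPKM, from 71, 72 and 72 reads. The libraries lay closer together than counting gives on average at that depth. The exact 95% Poisson interval of replicate 4 was 0.838 to 1.35 FPKM, and such intervals cover counting error only. The interval reached below 1 FPKM in each library, so the place of EFR just above the detection level is not secured by its depth. The gene model behind the deposited value was 3321 bases long, against 4306 bases of annotated exon. A non-coding RNA annotated on the other strand shares 105 bases with EFR.

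EFR was set against FLS2 as the other bacterial receptor. In FPKM, FLS2 was 5.02 ± 0.186 times as high as EFR (SD, n = 3). The difference in log2(FPKM + 1), EFR minus FLS2, was -1.67, -1.62 and -1.60 in replicates 4, 5 and 6, a mean of -1.63 ± 0.041, below 0 in 3 of 3 libraries. The 1 FPKM added before taking the log narrows ratios of low genes, and without it the difference was -2.33. The smallest p that flipping signs over 3 libraries allows in an exact two-sided test is 0.25, so this and the other pairs carry no p-value.

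PEPR1 (AT1G73080, chromosome 1, 27484240 to 27488204, plus strand, 2 exons) had 8.61, 8.54 and 8.43 FPKM, a mean of 8.53 ± 0.0867 FPKM. It was the most even of the 6 genes above the median nuclear gene, with 609, 604 and 596 reads. Its paralog PEPR2 (AT1G17750), the second receptor of Pep peptides, had 0.609, 0.758 and 0.774 FPKM, a mean of 0.714 ± 0.0909 FPKM, and did not reach the detection level. PEPR2 shares 19.1% of its 50-base words with other transcripts on either strand and PEPR1 2.51%. Most of the shared words of PEPR2 are therefore not shared with PEPR1. Which transcripts hold them was not examined, so reads of PEPR2 may be the less certain. PEPR2 minus PEPR1 was -2.48 ± 0.089 in log2(FPKM + 1), below 0 in 3 of 3 libraries, and PEPR1 was 12.1 ± 1.77 times as high in FPKM.

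The PROPEP genes encode the precursors from which the Pep ligands of PEPR1 are cut, and they were low. Of 6 listed, 3 were detected, against 63.0% of all nuclear genes, and 0 lay above the median nuclear gene in every library, against 48.8%. The list median was 1.20 FPKM, -1.43 from the background median in log2(FPKM + 1). PROPEP6 was highest at 4.10 ± 1.53 FPKM, with 5.74, 3.86 and 2.71 FPKM in replicates 4, 5 and 6. PROPEP2 was lowest at 0.115 ± 0.0993 FPKM, from 2, 2 and 0 reads.

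The chitin receptors CERK1 and LYK5 stood far apart. CERK1 (AT3G21630, chromosome 3, 7615357 to 7618671, minus strand, 12 exons), the signalling kinase of the pair, had 11.5, 10.9 and 11.9 FPKM, a mean of 11.4 ± 0.530 FPKM. LYK5 (AT2G33580, chromosome 2, 14219481 to 14222254, minus strand, 1 exon), which binds chitin with high affinity, had 1.30, 1.30 and 1.73 FPKM, a mean of 1.44 ± 0.247 FPKM. Replicate 6 was high for LYK5, with 77 reads against 58 in each of the others, and its exact 95% Poisson interval of 1.36 to 2.16 FPKM overlapped the 0.987 to 1.68 FPKM of replicate 4. The intervals of replicates 4 and 5 reached just below 1 FPKM, so detection of LYK5 is not secured by depth in those libraries. LYK5 minus CERK1 was -2.44, -2.37 and -2.24 in log2(FPKM + 1), a mean of -2.35 ± 0.10, below 0 in 3 of 3 libraries. In FPKM, CERK1 was 8.02 ± 1.01 times as high as LYK5.

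The other LysM genes placed this pair within its family. Of 8 LysM genes 7 were detected, against 63.0% of all nuclear genes. In every library 5 of the 8 lay above the median nuclear gene, against 48.8%. LYK3, a LysM receptor kinase that has been linked to restraint of immune responses, was highest at 20.0 ± 0.662 FPKM. CERK1 stood among the membrane-anchored LysM proteins LYM3 (13.7 ± 0.518 FPKM), LYM1 (12.9 ± 0.571 FPKM) and LYM2 (11.2 ± 1.15 FPKM). LYM1 and LYM3 bind bacterial peptidoglycan and LYM2 is a chitin receptor at plasmodesmata. The values of CERK1 and LYM2 overlapped between libraries, and LYM1 shares 30.6% of its 50-base words with other transcripts.

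LYK4, a LysM kinase that assists LYK5 in chitin perception, had 3.17, 3.14 and 2.98 FPKM, a mean of 3.10 ± 0.101 FPKM. It was thus above LYK5: LYK4 minus LYK5 was 0.75 ± 0.18 in log2(FPKM + 1), above 0 in 3 of 3 libraries, with 0.86 and 0.85 in replicates 4 and 5 and 0.54 in replicate 6. In FPKM the ratio of LYK4 to LYK5 was 2.19 ± 0.405. LYK2 was lowest of the family, with 2, 0 and 10 reads in replicates 4, 5 and 6, a mean of 0.102 ± 0.134 FPKM. Of the summed FPKM of the 8 genes, 15.5 ± 0.862% was from CERK1 and 1.96 ± 0.360% from LYK5.

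SOBIR1 (AT2G31880, chromosome 2, 13554870 to 13556977, plus strand, 1 exon) had 9.27, 9.98 and 9.96 FPKM, a mean of 9.74 ± 0.403 FPKM. Replicate 4 was the lowest, and the reads were 385, 414 and 413. This value is the least certain of the 9 as to its source. RAP (AT2G31890), on the other strand, shares 478 bases with SOBIR1 and had 21.1 ± 0.666 FPKM, and an antisense RNA is annotated there as well. Of the 50-base words of SOBIR1, 28.0% occur in other transcripts, counted on either strand. That share therefore includes the bases shared with these neighbours and is not a separate source of doubt. The part of these overlaps in the level of SOBIR1 was not tested.

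The receptor-like proteins that need SOBIR1 were lower than SOBIR1 itself. Of 5 listed, 2 were detected, against 63.0% of all nuclear genes. The list median was 1.04 FPKM, -1.48 from the background median in log2(FPKM + 1). RLP42, which senses fungal polygalacturonase, was highest at 5.19 ± 0.340 FPKM, though 31.6% of its words occur in other transcripts. RLP23, the receptor of the nlp20 peptide of microbial NLP toxins, was lowest at 0.159 ± 0.0612 FPKM, from 7, 13 and 7 reads.

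Both FLS2 and SOBIR1 signal through BAK1, one of the 5 SERK co-receptors. BAK1 (AT4G33430) had 23.4, 23.3 and 22.4 FPKM, a mean of 23.1 ± 0.557 FPKM. SERK2 was the highest of the family at 37.2 ± 0.770 FPKM, followed by BAK1, SERK4 (also BKK1, 6.63 ± 0.117 FPKM), SERK5 (3.99 ± 0.278 FPKM) and SERK1 (3.33 ± 0.301 FPKM). SERK4 and SERK5 share 23.1% and 24.8% of their words with other transcripts. FLS2 minus BAK1 was -1.90 ± 0.022 in log2(FPKM + 1) and SOBIR1 minus BAK1 was -1.16 ± 0.078, each below 0 in 3 of 3 libraries. BAK1 was 4.24 ± 0.0744 times as high as FLS2 and 2.37 ± 0.141 times as high as SOBIR1 in FPKM.

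**Figure D2:**
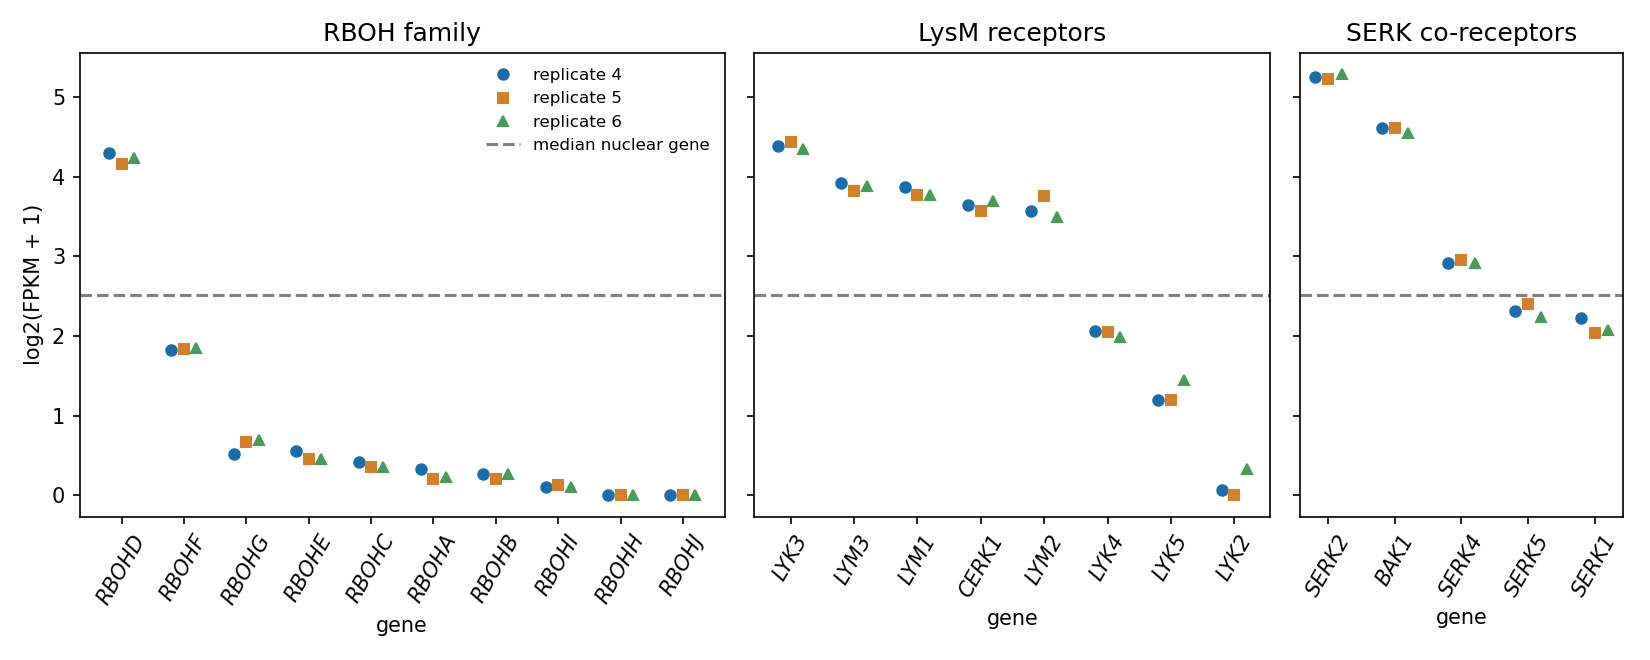
log2(FPKM + 1) in replicates 4, 5 and 6 for every gene of the RBOH, LysM and SERK families, each ordered by mean, with the median nuclear gene as a dashed line. RBOHD alone of the RBOH family lies above the line, LYK5 is second lowest among the LysM genes, and SERK2 and BAK1 lead the SERK genes.

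BIK1 (AT2G39660, chromosome 2, 16531527 to 16533986, plus strand, 6 exons) had 8.69, 10.2 and 9.98 FPKM, a mean of 9.61 ± 0.805 FPKM. Replicate 4 was low, with 307 reads against 359 and 352. The values of BIK1 interleaved with those of SOBIR1: SOBIR1 exceeded BIK1 by 0.124 ± 0.406 FPKM on average but in only 1 of 3 libraries, and the order of their means turned without replicate 4. Its nearest relative PBL1 (AT3G55450), which acts in part redundantly with BIK1, had 25.1, 24.7 and 25.2 FPKM, a mean of 25.01 ± 0.254 FPKM. PBL1 minus BIK1 was 1.43, 1.20 and 1.26 in log2(FPKM + 1), a mean of 1.30 ± 0.12, above 0 in 3 of 3 libraries, and PBL1 was 2.61 ± 0.236 times as high in FPKM.

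Of 10 listed cytoplasmic kinases, BIK1 included, 9 were detected, against 63.0% of all nuclear genes. The list median was 10.5 FPKM. BSK1, a kinase that associates with FLS2, was highest at 58.8 ± 1.09 FPKM, and PBL13, described as a negative regulator of RBOHD, was lowest at 1.20 ± 0.206 FPKM. Of 7 listed genes for proteins that control the turnover of BIK1 and of receptors 7 were detected, beside 63.0% of all nuclear genes. They ran from AGB1, the G protein beta subunit, at 57.7 ± 2.05 FPKM down to the ubiquitin ligase PUB12 at 2.24 ± 0.186 FPKM, with a list median of 9.94 FPKM. The 3 listed BIR genes, which encode receptor kinases that hold back BAK1 complexes, ran from BIR3 at 37.4 ± 0.813 FPKM down to BIR2 at 7.73 ± 0.116 FPKM.

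The oxidases RBOHD and RBOHF were the first and the 7th of the 9 genes. RBOHD (AT5G47910, chromosome 5, 19397041 to 19402061, plus strand, 8 exons) had 18.6, 16.8 and 17.9 FPKM, a mean of 17.8 ± 0.930 FPKM, at percentile 75.2 of nuclear genes. RBOHF (AT1G64060, chromosome 1, 23769774 to 23776984, plus strand, 14 exons), which acts in abscisic acid responses of guard cells and in root barriers as well as in defence, had 2.55, 2.56 and 2.60 FPKM, a mean of 2.57 ± 0.0283 FPKM. RBOHF minus RBOHD was -2.47, -2.32 and -2.39 in log2(FPKM + 1), a mean of -2.39 ± 0.075, below 0 in 3 of 3 libraries. RBOHD was 6.91 ± 0.385 times as high as RBOHF in FPKM. No 50-base word of either gene occurs in another transcript.

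RBOHD and RBOHF made up most of the RBOH family's RNA. Of 10 RBOH genes only RBOHD and RBOHF were detected, against 63.0% of all nuclear genes. The shares of RBOHD and RBOHF in the summed FPKM were 80.5 ± 0.582% and 11.7 ± 0.561%. RBOHG (0.550 ± 0.0974 FPKM), RBOHE (0.410 ± 0.0588 FPKM) and RBOHC (0.301 ± 0.0272 FPKM) followed. RBOHC is known for root hair growth, and the root hair markers COBL9 and EXPA7 were also near 0, at 0.0701 ± 0.0468 and 0.0162 ± 0.0281 FPKM. RBOHA (0.197 ± 0.0558 FPKM), RBOHB (0.189 ± 0.0327 FPKM, known from seeds) and RBOHI (0.0856 ± 0.0093 FPKM) were lower still. RBOHH and RBOHJ, oxidases of the pollen tube, had no read in any library, and the limit of 3 reads that a 0 allows is 0.0479 FPKM for RBOHH and 0.0483 FPKM for RBOHJ. The pollen marker VGD1 was at 0 too and AGP11 was at 0.156 ± 0.102 FPKM. In whole seedlings fewer cells of a type and less RNA per cell cannot be told apart.

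Of 10 listed regulators of the oxidases (kinases, calcium sensors and partners), 10 were detected, against 63.0% of all nuclear genes, and 10 lay above the median nuclear gene in every library, against 48.8%. Their list median was 9.97 FPKM. SRC2, a C2-domain protein that activates RBOHF, was highest at 75.1 ± 2.01 FPKM. The calcium-dependent kinase CPK11 was lowest at 6.19 ± 0.385 FPKM. The apoplastic peroxidases PRX34 and PRX33, a second source of reactive oxygen in immunity, had 10.03 ± 0.980 and 6.27 ± 0.515 FPKM, below RBOHD in each library.

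The 250 bases upstream of the annotated start are shown for RBOHF, which held no copy of the motif searched, for RBOHD, the highest of the genes, and for PEPR1, which held the most copies (RefSeq, TAIR10.1, plus strand). Capitals mark TTGAC on either strand, the core of the W-box that WRKY transcription factors bind.
RBOHF, chr1:23769524-23769773: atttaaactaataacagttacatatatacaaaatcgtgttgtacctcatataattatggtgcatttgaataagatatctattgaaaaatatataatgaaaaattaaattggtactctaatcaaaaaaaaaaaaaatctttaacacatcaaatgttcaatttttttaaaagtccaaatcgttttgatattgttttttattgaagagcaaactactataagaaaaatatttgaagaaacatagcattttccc
RBOHD, chr5:19396791-19397040: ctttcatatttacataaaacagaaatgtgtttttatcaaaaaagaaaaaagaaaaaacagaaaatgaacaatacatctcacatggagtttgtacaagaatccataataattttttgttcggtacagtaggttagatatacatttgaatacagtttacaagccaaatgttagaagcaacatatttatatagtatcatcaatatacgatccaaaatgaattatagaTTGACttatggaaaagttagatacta
PEPR1, chr1:27483990-27484239: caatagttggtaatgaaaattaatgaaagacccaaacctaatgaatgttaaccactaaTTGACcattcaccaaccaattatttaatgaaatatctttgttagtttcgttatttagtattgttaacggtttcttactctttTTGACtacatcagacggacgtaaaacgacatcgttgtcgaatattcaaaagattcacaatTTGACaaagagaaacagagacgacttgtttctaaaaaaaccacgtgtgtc
TTGAC was present upstream of 8 of the 9 genes, and upstream of 45.0% of 26709 nuclear protein-coding genes. RBOHD held 1 copy, which began 26 bases before the start. PEPR1 held 3 copies, which began 192, 110 and 50 bases before the start, and each of the other genes with the motif held 1. The longer forms TTGACC and TTGACT, which contain TTGAC, were present in 5 of the 9 genes (CERK1, PEPR1, SOBIR1, BIK1 and RBOHD) and in 28.5% of nuclear genes. These matches describe letters in a window and not binding.

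The MAP kinase cascade and genes known to respond to elicitors were read beside the same shares of all nuclear genes, 63.0% detected and 48.8% above the median in every library. Of 11 genes of the MAP kinase cascade that runs beside BIK1, 10 were detected, with a list median of 13.4 FPKM, 1.33 above the background median in log2(FPKM + 1). MPK6 was highest at 34.4 ± 0.786 FPKM, and MPK11 was lowest at 0.0884 ± 0.0689 FPKM. Among 7 elicitor response genes 5 were detected and 1, WRKY33 (7.70 ± 0.839 FPKM), lay above the median nuclear gene in every library. The flagellin response marker FRK1 was lowest at 0.0062 ± 0.0107 FPKM, from a single read in replicate 4. The list median was 2.29 FPKM, -0.80 from the background median. Of 6 other surface receptors 5 were detected, led by FER (76.5 ± 0.681 FPKM), a receptor of RALF peptides that also scaffolds immune complexes, with PEPR2 lowest.

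**Figure D3:**
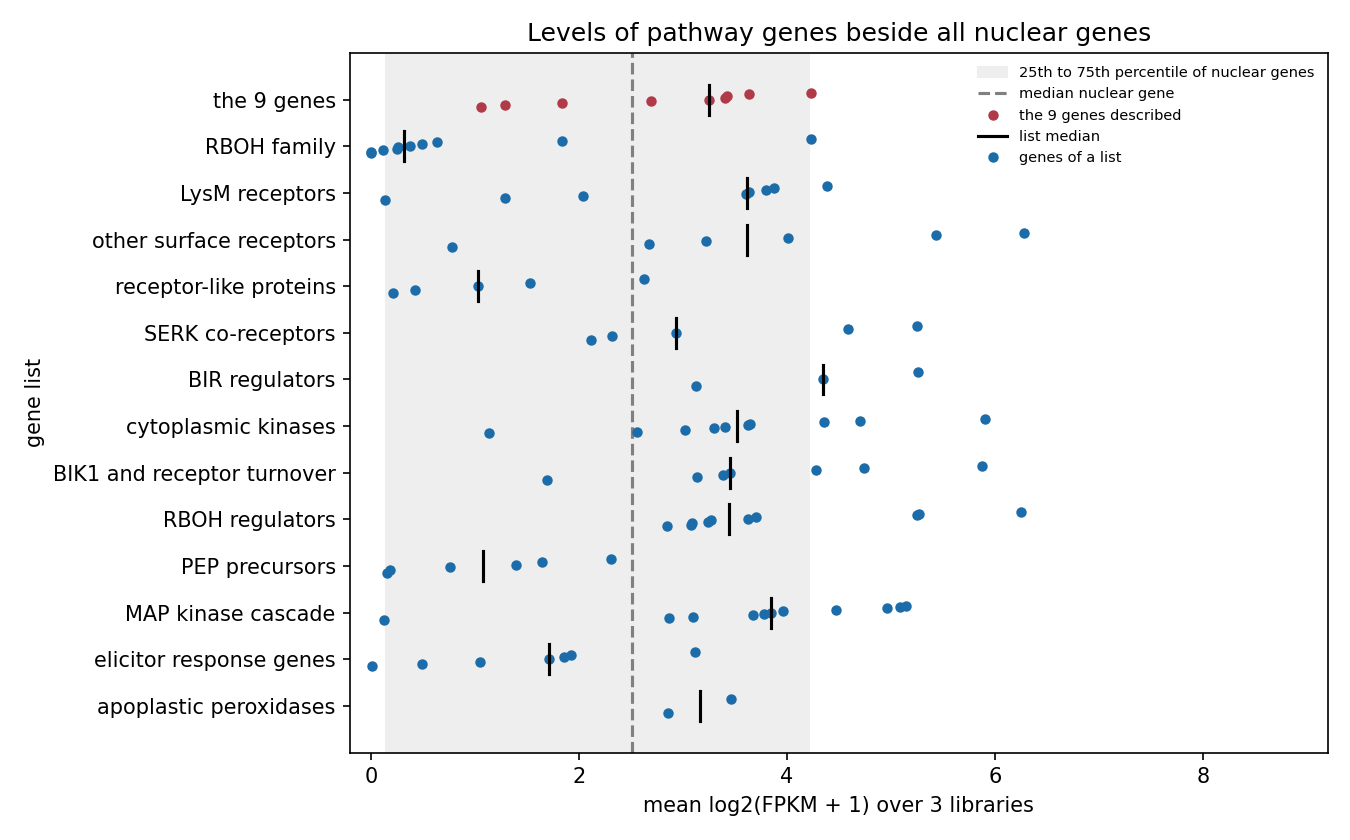
Mean log2(FPKM + 1) over the 3 libraries (horizontal axis) for each gene of the 9 and of 13 pathway lists, the marker lists left out, with list medians as black bars, the median nuclear gene as a dashed line and the 25th to 75th percentile of nuclear genes in grey. The medians of the PEP precursors, receptor-like proteins, elicitor response genes and RBOH family lie left of the dashed line and the medians of the other lists drawn lie right of it.

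**Figure D4:**
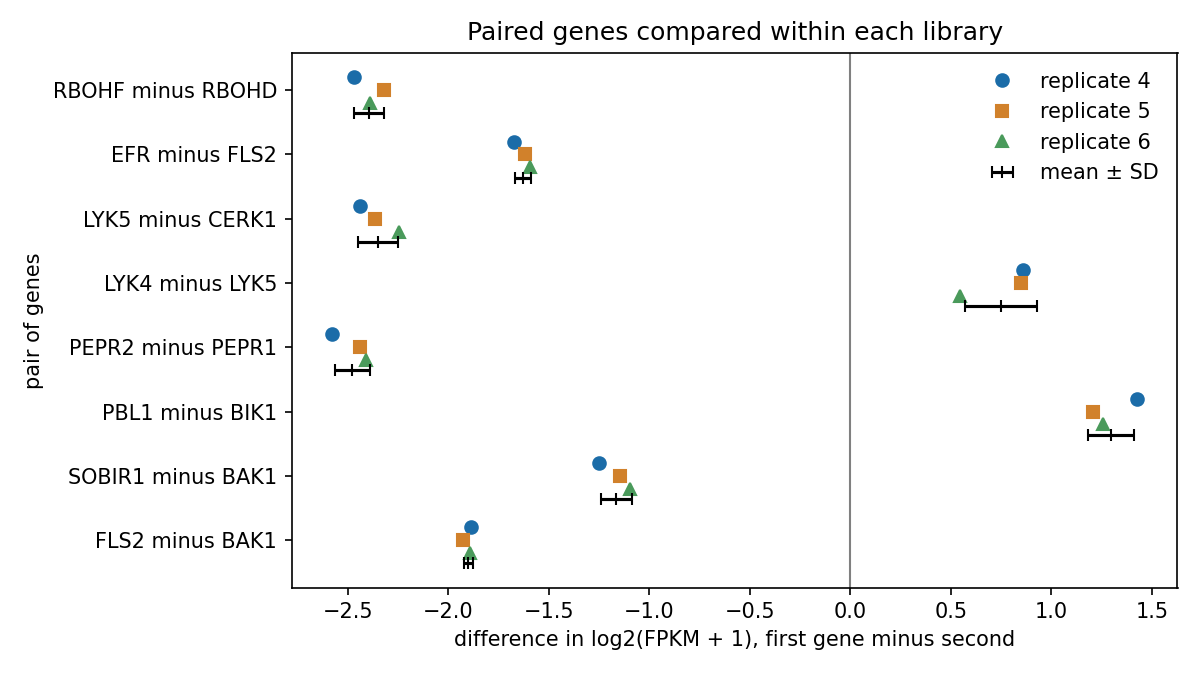
Difference in log2(FPKM + 1) within each library, first gene minus second, for 8 pairs of genes, with the mean ± SD under the points. The 3 points of a pair lie on the same side of 0 in every pair, from -2.48 for PEPR2 minus PEPR1 to 1.30 for PBL1 minus BIK1.

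The order of the 9 genes was mostly clear of the spread between libraries. Of the 36 possible pairs of genes, 35 had libraries that did not overlap, and the exception was SOBIR1 with BIK1. The same share over pairs of all nuclear genes was not computed, so this count is a description and not a property of the set. For some neighbours the gap was small. BIK1 exceeded PEPR1 by 1.09 ± 0.868 FPKM in 3 of 3 libraries, but in replicate 4 their values were 8.69 and 8.61 FPKM. The Poisson intervals of BIK1 and PEPR1 overlapped in each library. LYK5 exceeded EFR by 0.359 ± 0.242 FPKM in 3 of 3 libraries, with overlapping Poisson intervals in each. CERK1 exceeded SOBIR1 by 1.68 ± 0.706 FPKM, with Poisson intervals that overlapped in replicates 5 and 6. Beyond neighbours, the intervals of SOBIR1 and PEPR1 overlapped in each library, and those of CERK1 and BIK1 in replicates 5 and 6. RBOHD exceeded CERK1 by 6.34 ± 0.707 FPKM, and PEPR1 exceeded FLS2 by 3.08 ± 0.0806 FPKM.

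Read number and level ranked the genes differently, because the genes differ in length. PEPR1, with 1809 reads over the 3 libraries, had more reads than CERK1 with 1407, although its level was lower: the model lengths behind the values were 3552 and 2063 bases. The 9 genes together held 3708, 3625 and 3734 reads in replicates 4, 5 and 6, or 67.2, 66.7 and 68.9 FPKM in sum. RBOHD alone had 1189, 1070 and 1137 of them.

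The spread of the 9 genes between libraries was set beside counting error. The variance of reads over their mean is 1 on average for pure counting, and with 3 libraries its median under pure counting lies below 1. The ratio was above 1 in 4 genes and below 1 in 5, with a median of 0.691. This median was 0.0571 without replicate 4, 0.620 without replicate 5 and 0.301 without replicate 6. Under pure counting the median falls further when a library is left out, so these values are not on the scale of 0.691. RBOHD had the largest ratio, 3.10, with a coefficient of variation of 5.23% against 2.97% from counting alone. BIK1 followed with 2.38, then LYK5 with 1.89. The lowest ratios were 0.0054 for EFR, 0.0244 for RBOHF and 0.0623 for PEPR1. Across 5546 nuclear genes with a mean of 300 to 1000 reads per library the median ratio was 1.02 and the mean 1.49. About as many of those genes thus lay above 1 as below it. EFR, LYK5, RBOHF and RBOHD have read numbers outside that range. The median ratio of nuclear genes was 0.980 at 30 to 100 reads, where EFR and LYK5 lie. It was 1.01 at 100 to 300 reads, for RBOHF, and 1.12 at 1000 to 3000 reads, for RBOHD. With 3 values per gene such ratios scatter widely.

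**Figure D5:**
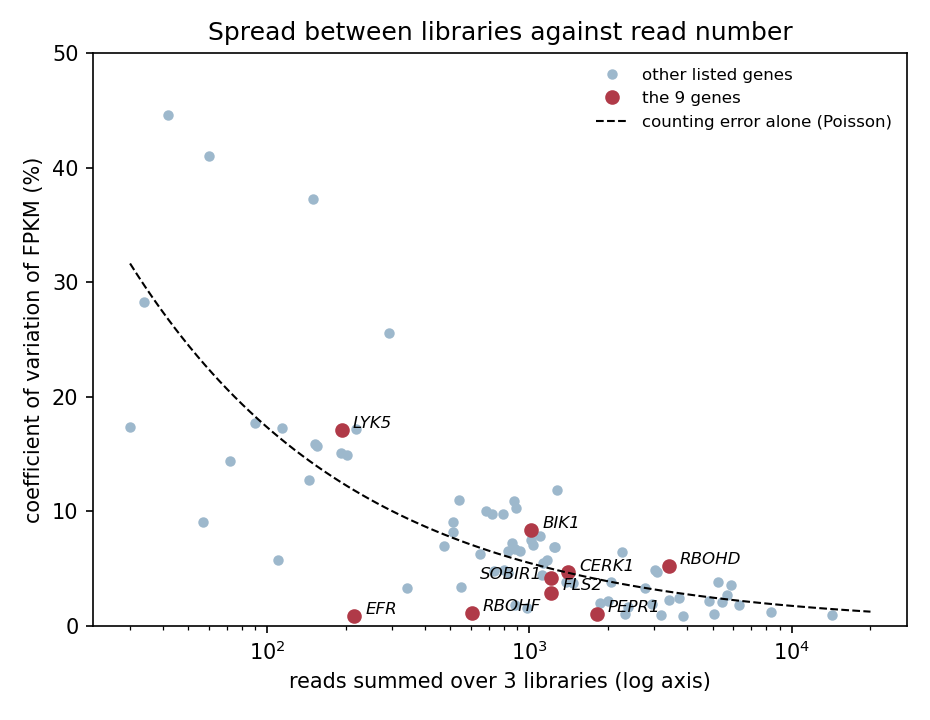
Coefficient of variation of FPKM over 3 libraries (vertical axis, %) against summed reads (horizontal log axis) for the 9 genes and for other listed genes with at least 30 reads, the leaf markers left out, with the line that Poisson counting gives. LYK5, BIK1 and RBOHD lie above the line, CERK1 lies on it, and EFR, RBOHF and PEPR1 lie close to 0.

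Genes at nearly the same level as FLS2 and RBOHD were sought by the largest difference in log2(FPKM + 1) over the 3 libraries. RR10, a response regulator of cytokinin signalling, was nearest to FLS2 with a largest difference of 0.014, followed by AT5G61540 (0.026) and AT1G30600 (0.028). EMB2768 was nearest to RBOHD with 0.026, followed by FLN2 (0.027) and AT4G38280 (0.029). Within 0.1 of the same measure there were 151 genes for FLS2 and 184 for RBOHD. A match of this kind is a likeness of level over 3 libraries only.

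Facts of the libraries bear on all values. The recovered totals were 19892527 to 19921241 reads, a range of 0.144%, and 1 read in a gene of 1000 bases was worth 0.0502 to 0.0503 FPKM. The leaf markers CAB1 and RBCS1A stood at 13523 ± 137 and 10938 ± 89.8 FPKM, the guard cell markers FAMA and KAT1 at 18.03 ± 0.350 and 5.00 ± 0.50 FPKM, and the endodermis markers CASP1 and CASP2 at 4.27 ± 0.733 and 3.08 ± 0.489 FPKM. The libraries thus held RNA of leaf, guard cell and endodermis markers. The root hair markers COBL9 and EXPA7 and the pollen markers VGD1 and AGP11 did not reach the detection level. The share of root tissue in the libraries was not measured.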

How the data were processed

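RNA-seq of whole seedlings was deposited as 1 value per gene for each of 3 libraries. Per the labels' protocols, total RNA was depleted of ribosomal RNA before strand-preserving (directional) libraries were made for Illumina sequencing. Per the submitters' processing notes, TopHat2 2.0.9, Cufflinks 2.1.1 and the build TAIR10 were used, with no role named. The file headers give no unit; the deposited values are treated as the authors' FPKM, and RPKM is equally possible. The strand setting, annotation and handling of multiply matching reads: not given in the sources used here.

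Library totals and whole reads were recovered from the deposited FPKM: a total is the number that makes whole reads of the values where genes have their annotated length, and a gene's length is the single whole number between 0.7 and 1.05 of its annotated exon length that gives whole reads in all 3 libraries, within 0.0001 reads plus 1e-09 of the reads. This gave reads for 19681 genes, all 9 described among them. On simulated data the recovery returned all 3 totals. Of 21889 genes simulated above 0 it resolved 21723, and the reads of 100% of these were exact. Their lengths were simulated only within the range of lengths searched. In the real data the totals used had 706 to 727 matches, against 442 to 464 for the next best candidate. Reads served for depth and counting error; no count model was fitted, as there is 1 group.

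Levels are means ± SD of FPKM (n = 3), and differences are in log2(FPKM + 1) within a library, which understates differences of low genes. The background was 27197 nuclear protein-coding genes. A 0 allows up to 3 reads. Gene names, positions and sequences come from the RefSeq annotation and genome of TAIR10.1, since coordinates are absent from the files, and all 104 listed loci matched that table. Shared words are 50-base words of the longest transcript found in another gene's transcript on either strand. Bases that overlap a neighbour on the other strand can therefore count as shared. Genes named are all 9, both partners of 8 pairs, the highest and lowest of each of 18 lists, all RBOH, LysM and SERK genes, and the 3 nearest in level to FLS2 and to RBOHD. RWA1 and RAP are named for their overlap. The genes, pairs and lists were chosen with earlier results of these data known, and the length rule and the ratio without a pseudocount after the values were seen. Alternatives were a pseudocount of 0.1 or none, rescaling to an equal sum in each library (TPM), other detection levels, a background filter and leaving out each library. Python 3.11.15, pandas 2.3.3, numpy 2.4.6, scipy 1.17.1 and matplotlib 3.10.9 were used.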

Additional observations from a re-analysis of the deposited data

How the results depend on the processing

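The 9 genes stayed detected at a minimum of 0.5 FPKM, as a lower minimum must give, and 6 passed 5 FPKM. Among nuclear genes whose mean reached 1 FPKM, 1 gene in place of 6 lay above the median, and the difference of medians was -0.51 in place of 0.74, since that filter removes only background genes. With a pseudocount of 0.1 this difference was 0.85, and in TPM 0.77. The sign of a pair could not change under these settings, so it is no test of them. A pseudocount or rescaling keeps the order of genes within a library, and each pair had the same sign in every library. With a pseudocount of 0.1 the differences were -2.74 (RBOHF minus RBOHD), -2.23 (EFR minus FLS2), -2.91 (LYK5 minus CERK1), 1.06 (LYK4 minus LYK5), -3.41 (PEPR2 minus PEPR1) and -2.06 (FLS2 minus BAK1). Without a pseudocount, chosen after seeing the data, they were -2.79, -2.33, -2.996, 1.11, -3.59 and -2.08, and -1.24 for SOBIR1 minus BAK1. In TPM they were -2.48 (RBOHF minus RBOHD), -1.77 (EFR minus FLS2), -2.49 (LYK5 minus CERK1), -2.68 (PEPR2 minus PEPR1) and -1.95 (FLS2 minus BAK1). Leaving out 1 library gave ranges of -2.43 to -2.35, -1.65 to -1.61, -2.40 to -2.30, 0.70 to 0.85, -2.51 to -2.43 and -1.91 to -1.89 for the 6 pairs in the order of the first list, 1.23 to 1.34 for PBL1 minus BIK1, -1.20 to -1.12 for SOBIR1 minus BAK1, and 0.73 to 0.75 for the difference of medians. The median ratio of variance to mean of reads was 0.0571 without replicate 4, 0.620 without replicate 5 and 0.301 without replicate 6. These medians rest on fewer libraries and are not on the scale of the median over all libraries. Counts of detected genes, of genes above the median and of the 7 of 8 neighbours without overlap were the same without any library. Each count asks for every library, so leaving 1 out could not lower it. The means of SOBIR1 and BIK1 changed places without replicate 4. No paired analysis was possible because there is 1 group. Depth limits EFR and LYK5 most, with 215 and 193 reads in all.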
